A study of Homo sapiens with 12 samples.

Results

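The claudin and tight junction genes are 43 of the 59542 gene rows measured in SKOV-3 cells, chosen by symbol alone. They comprise 24 claudins, 3 MARVEL-domain genes (OCLN, MARVELD2 and MARVELD3), 3 junctional adhesion molecules (F11R, JAM2 and JAM3), 5 ZO and cingulin scaffolds (among them TJP1, TJP3, CGN and CGNL1), 4 Crumbs-complex genes (CRB1 to CRB3 and PATJ) and 4 PAR-complex genes (PARD3 and PARD6A, PARD6B and PARD6G). SKOV-3 is an established human epithelial ovarian adenocarcinoma line. The 4 groups held 3 libraries each: cisplatin-resistant cells in which KDM5A and KDM5B were both knocked out, cisplatin-resistant cells with no knockout, parental cells with the same double knockout, and parental cells with no knockout. KDM5A and KDM5B encode demethylases of lysine 4 of histone H3, and the title of the series links KDM5 proteins to cisplatin resistance. The labels used here do not say how resistance was raised, whether the knockout cells were clones or pools, or whether replicate libraries were grown as separate cultures. The p-values therefore measure the spread between libraries alone, and that spread may be technical.

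Tight junctions seal the space between neighbouring epithelial cells. Claudins form the strands, and their mix sets which ions pass: some claudins tighten the barrier, and others form channels. Occludin, tricellulin (MARVELD2) and the junctional adhesion molecules lie beside the claudins in the membrane. ZO proteins and cingulin tie them to actin, and the Crumbs and PAR complexes set up the apical domain and place the junction. In bulk RNA, fewer cells with a transcript and less of it per cell cannot be told apart.

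In resistant cells the claudins were differently mixed. CLDN3 and CLDN7 were nearly absent there and clearly present in parental cells, while CLDN16 was far higher in resistant cells and occludin and cingulin also rose. The double knockout moved 1 member past the test: CLDN7 rose about 10-fold (9.96) in resistant cells and did not pass in parental cells. That call was lost in 6 of 12 fits that left out 1 library, by limma-voom and in a fit of the compared libraries alone. The difference between the knockout effects of CLDN7 in the resistant and parental backgrounds did not pass the edgeR test, though DESeq2 called it. CLDN1 was the main claudin in every group. PATJ and CRB3, of the Crumbs complex, fell in resistant cells, where 12.8% of all genes were called lower. The CRB3 call was narrow (edgeR adjusted p = 0.0443) and was kept in 5 of 12 fits that left out 1 library.

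Sequences are shown at the positions where 2 members have close starts in GENCODE 29 or where neighbouring claudins behaved differently. Windows with the most matches to a repressor motif are also shown. All are RefSeq promoter windows of GRCh38.p14, from 250 bases before to 50 bases after an annotated start, printed 5′ to 3′ on the gene's strand. CLDN1 and CLDN16 lie head to head on chromosome 3, CLDN1 at 190305701 to 190322475 on the minus strand and CLDN16 at 190322541 to 190412143 on the plus strand (GENCODE 29), with starts 66 bases apart. In the CLDN1 window, chr3:190322397-190322696 on the minus strand, capitals mark the 65 bases between these starts. RefSeq instead gives CLDN16 starts 32.1 kb and 65.7 kb from the CLDN1 start, and which start these cells use was not tested. The window of the second is shown, at chr3:190387913-190388212 on the plus strand. In it and in the next 4, capitals mark CACCTG on either strand, the E-box read by the SNAI and ZEB repressors.
CLDN1: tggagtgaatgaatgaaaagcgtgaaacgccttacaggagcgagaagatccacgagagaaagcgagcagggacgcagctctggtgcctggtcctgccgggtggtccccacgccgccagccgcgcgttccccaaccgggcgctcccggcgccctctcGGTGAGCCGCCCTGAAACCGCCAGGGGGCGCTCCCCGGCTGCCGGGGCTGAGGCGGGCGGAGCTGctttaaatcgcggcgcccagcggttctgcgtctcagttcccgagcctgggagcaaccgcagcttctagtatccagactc
CLDN16: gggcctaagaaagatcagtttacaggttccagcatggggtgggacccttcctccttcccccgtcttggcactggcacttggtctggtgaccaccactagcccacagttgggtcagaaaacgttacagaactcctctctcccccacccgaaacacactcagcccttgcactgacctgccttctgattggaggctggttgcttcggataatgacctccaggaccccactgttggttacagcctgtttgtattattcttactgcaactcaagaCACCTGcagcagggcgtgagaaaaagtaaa

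CLDN3 (chromosome 7, 73768997 to 73770270, minus strand) and CLDN4 (73799542 to 73832693, plus strand) are 29.3 kb apart. Their windows are chr7:73770221-73770520 on the minus strand, with 1 E-box, and chr7:73830746-73831045 on the plus strand, with 0.
CLDN3: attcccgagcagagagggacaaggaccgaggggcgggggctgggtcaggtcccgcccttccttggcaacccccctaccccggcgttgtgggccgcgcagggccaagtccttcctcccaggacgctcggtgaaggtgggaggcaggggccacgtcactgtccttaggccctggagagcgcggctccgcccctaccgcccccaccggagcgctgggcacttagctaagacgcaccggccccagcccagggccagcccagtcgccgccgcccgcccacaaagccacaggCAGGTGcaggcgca
CLDN4: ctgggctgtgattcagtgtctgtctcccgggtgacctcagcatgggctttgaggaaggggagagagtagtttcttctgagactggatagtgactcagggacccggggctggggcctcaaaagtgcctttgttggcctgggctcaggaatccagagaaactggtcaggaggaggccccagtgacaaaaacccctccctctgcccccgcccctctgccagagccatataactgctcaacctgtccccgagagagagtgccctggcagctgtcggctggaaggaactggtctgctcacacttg
CLDN7 (chromosome 17, 7259903 to 7263983, minus strand) and CRB3 (chromosome 19, 6463777 to 6467221, plus strand) each have a window with 5 E-boxes. These windows are chr17:7262429-7262728 on the minus strand for CLDN7 and chr19:6464021-6464320 on the plus strand for CRB3.
CLDN7: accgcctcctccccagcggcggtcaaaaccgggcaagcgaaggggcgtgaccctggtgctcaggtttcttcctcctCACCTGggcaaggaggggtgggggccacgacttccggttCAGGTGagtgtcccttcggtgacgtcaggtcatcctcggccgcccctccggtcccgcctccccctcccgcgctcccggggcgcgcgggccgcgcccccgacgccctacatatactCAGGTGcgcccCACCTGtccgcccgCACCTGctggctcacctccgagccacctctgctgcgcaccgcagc
CRB3: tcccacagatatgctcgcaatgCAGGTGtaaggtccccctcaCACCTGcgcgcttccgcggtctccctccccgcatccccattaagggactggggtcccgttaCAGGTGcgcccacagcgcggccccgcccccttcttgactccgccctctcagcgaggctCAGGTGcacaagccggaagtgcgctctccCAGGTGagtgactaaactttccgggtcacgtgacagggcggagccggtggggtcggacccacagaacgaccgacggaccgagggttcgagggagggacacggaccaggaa

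Among all 35116 RefSeq windows, 20.6% held at least 1 E-box and 33 windows, or 0.09%, held at least 5. The table had 45 windows for 31 of the 43 members, of which 15 held an E-box; alternative windows of a gene are not independent. PATJ had 3 in its window, and neither CLDN1 nor CLDN4 had any. OCLN, which rose in resistant cells, had 1 and 2 in its windows. CLDN6, also higher there, had 1, and the other CLDN7 window had 0. The relation of these matches to the direction of change was not tested. Letter matches are a description of the sequence and not of binding.

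Libraries held between 15659352 and 19706754 counts. Levels are given in CPM, counts normalised to a fixed total with the effective library size, and log2 fold changes and adjusted p-values come from edgeR's quasi-likelihood test over all 12 libraries, adjusted over 17947 genes. Of the 43 members, 30 passed the filter on low counts. The other 13 did not pass it: CRB1 and the claudins CLDN2, CLDN5, CLDN8, CLDN10, CLDN14, CLDN17, CLDN19, CLDN20, CLDN22, CLDN24, CLDN25 and CLDN34. CLDN17 and CLDN22 had no reads in any library, and CLDN5, the endothelial claudin, did not exceed 0.473 CPM. KDM5A was lower in each of the 6 knockout libraries than in every control of its background, at 12.0 to 17.6 CPM in resistant knockout and 33.4 to 39.9 CPM in resistant cells, and at 15.6 to 22.5 CPM in parental knockout and 30.9 to 41.5 CPM in parental cells. KDM5B lay below every control in 2 of the 6 knockout libraries only. Neither gene passed for the knockout in resistant cells (edgeR adjusted p = 0.0524 for KDM5A and 0.908 for KDM5B). These RNA levels do not show whether the proteins were lost.

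The first comparison asks how resistant cells differ from parental cells. Past the test were 9 of the 30 members, or 30%, against 28.0% of all genes tested, so the share is near the background. Higher in resistant cells were 5 members (15.2% of all genes) and lower were 4 (12.8% of all genes). The median log2 difference was 0.52 for the members and 0.02 for all genes. Among the members, 12 had groups of libraries that did not overlap, against 45.5% of all genes.

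CLDN16, a channel-forming claudin known for magnesium and calcium reabsorption in the kidney, had 139, 42.8 and 34.1 CPM in the resistant libraries numbered 1, 2 and 3, against 1.02, 1.41 and 0.88 CPM in the parental libraries. Every resistant library lay far above every parental one, and the library numbered 1 stood highest. The log2 fold change was 6.02 ± 0.74 (SE, n = 3 each), with an edgeR adjusted p of 0.000114. Without the resistant library numbered 1 it was 5.12, and the call was kept.

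**Figure D1:**
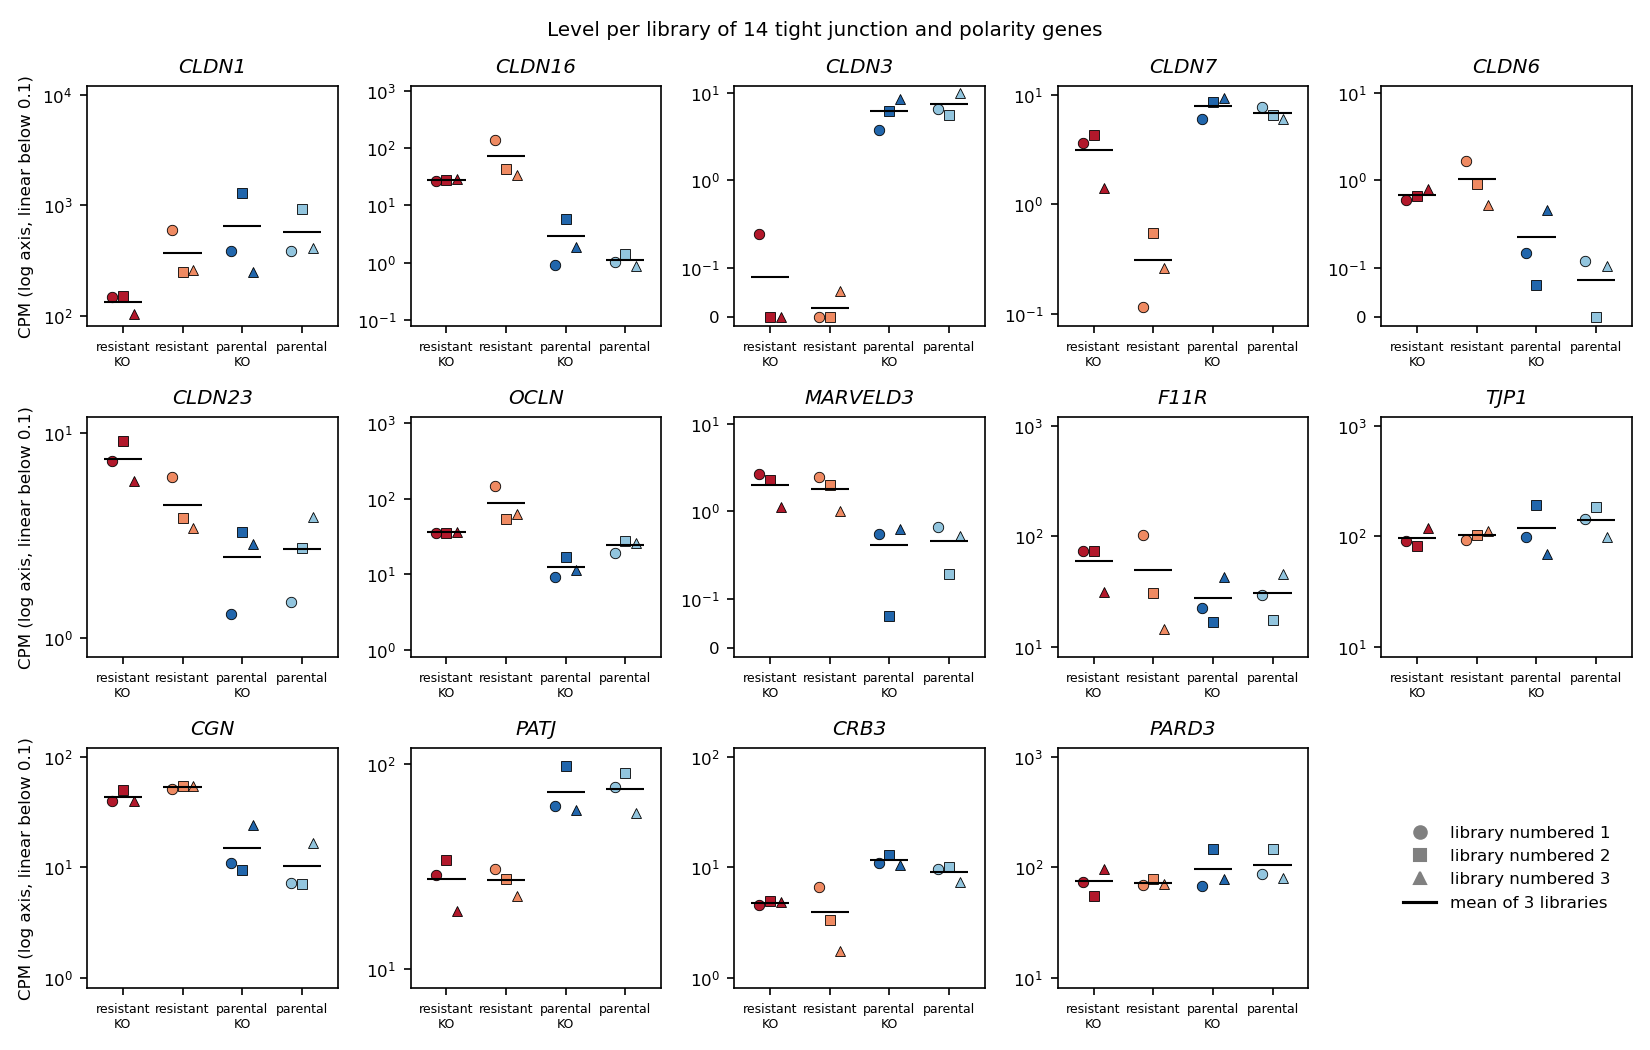
CPM per library of the 14 members with a mean of at least 50 CPM in a group, or past the test in a comparison with at least 1 CPM in a group, on a log axis that is linear below 0.1 CPM; "KO" is the double knockout, symbols give the library number and bars the mean of 3 libraries. CLDN3 lies at 0 to 0.247 CPM in the 6 libraries of the resistant background and at 3.76 to 9.99 CPM in the other 6, while CLDN16 lies at 26.0 to 139 CPM and at 0.88 to 5.81 CPM.

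CLDN3, a barrier-forming claudin common in ovarian carcinoma, had 0, 0 and 0.0526 CPM in resistant cells, against 6.63, 5.57 and 9.99 CPM in parental cells. The resistant value rests on 1 read, in the library numbered 3, and the parental one on 391 reads. The level was 398 times higher in parental cells, with a 95% exact counting interval of 71.0 to 15800, and the edgeR adjusted p was 0.000149. CLDN4, its neighbour on chromosome 7, did not pass: it had 61.3, 7.74 and 3.00 CPM in resistant cells, against 19, 4.29 and 4.30 CPM in parental cells. These ranges overlap, and the library numbered 1 was highest in each group.

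CLDN7, another claudin of simple epithelia, had 0.117, 0.548 and 0.263 CPM in resistant cells and 7.77, 6.53 and 5.95 CPM in parental cells. The resistant mean was 4.58% of the parental mean, and no resistant library came near a parental one. Its log2 fold change was -4.43 ± 0.58 (SE, n = 3 each) with an edgeR adjusted p of 0.00018. Without the resistant library numbered 2 it was -5.09, still called. An antisense gene, ELP5, shares exon positions with CLDN7, and the labels used here give no strand setting for the counting. ELP5 itself had a log2 fold change of 0.27 ± 0.26 (edgeR adjusted p = 0.462), so it did not fall alongside.

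CLDN6, an embryonic claudin, was low throughout, with 1.69, 0.914 and 0.526 CPM in resistant cells and 0.119, 0 and 0.104 CPM in parental cells. The parental values rest on 4 reads in all. It rose by a log2 fold change of 3.65 ± 0.85 (edgeR adjusted p = 0.00732), but its exons overlap the antisense gene TNFRSF12A, which took 132092 reads over the 12 libraries, so its level is uncertain.

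CLDN1, a barrier claudin known from skin, had 595, 248 and 260 CPM in resistant cells and 383, 921 and 406 CPM in parental cells. The groups overlapped, and the log2 fold change of -0.63 ± 0.58 did not pass (edgeR adjusted p = 0.443). Its neighbour CLDN16, head to head with it by the GENCODE starts, thus rose where CLDN1 did not pass the test. Among other genes nearby, singled out after their values were seen, P3H2 and IL1RAP were also higher in resistant cells, by log2 fold changes of 2.54 ± 0.61 and 1.97 ± 0.42 (edgeR adjusted p = 0.00825 and 0.00435). TP63 on the same arm was lower, at -3.24 ± 0.74 (edgeR adjusted p = 0.00645).

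The claudin mix shows this as a share of all claudin CPM. CLDN1 made up 68.0% to 73.5% in resistant and 76.9% to 92.8% in parental libraries. CLDN16 made up 9.61% to 15.8% in resistant libraries and 0.142% to 0.204% in parental ones. Per kilobase of exon, CLDN1 led in all 4 groups, with 36.5 ± 7.1 CPM per kb in resistant knockout, 100 ± 53.8 in resistant, 176 ± 157 in parental knockout and 156 ± 83 in parental cells (SD, n = 3). Second by that measure stood CLDN16 in resistant cells, at 20 ± 16.2 CPM per kb, and CLDN15, a channel-forming claudin of the gut, in parental cells, at 11.7 ± 3.67 CPM per kb. CLDN3 was the third in parental cells, at 5.81 ± 1.81 CPM per kb, while in resistant cells the third was CLDN15, at 8.27 ± 1.01 CPM per kb. In resistant cells the gap between CLDN16 and CLDN15 was smaller than the SD of CLDN16.

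**Figure D2:**
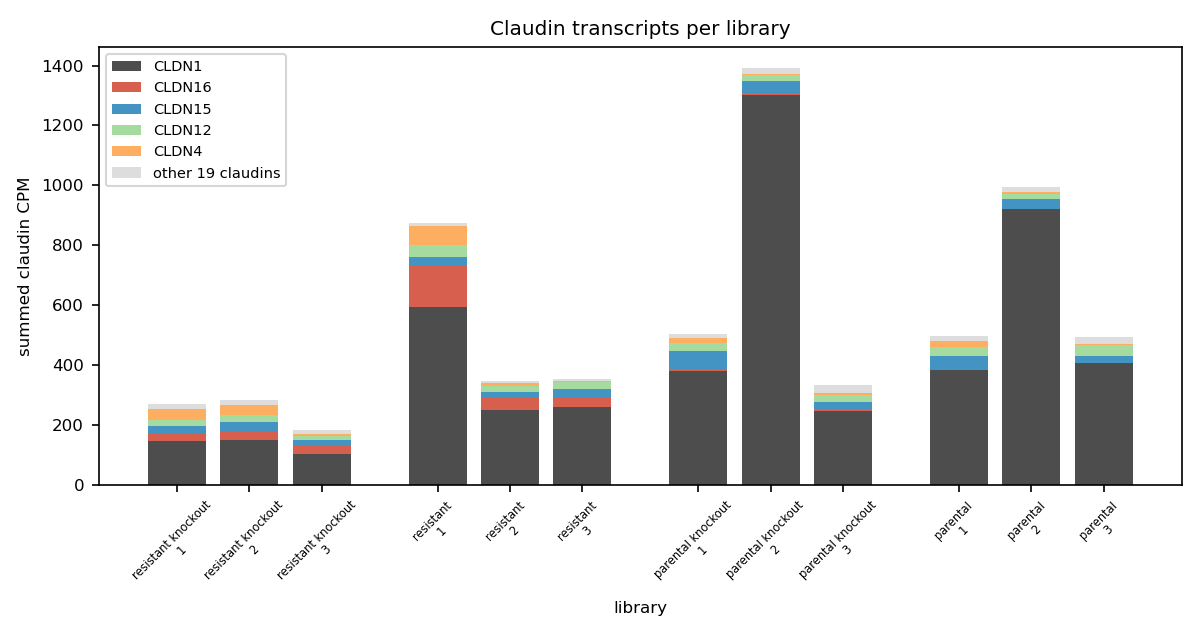
Summed CPM of the 24 claudins in each library, stacked by gene, from resistant knockout on the left to parental on the right. CLDN1 takes 53.2% to 57.1% of the sum in resistant knockout libraries and 74.0% to 93.4% in parental knockout libraries, and the CLDN16 band is visible in the resistant background.

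Of the MARVEL genes, OCLN and MARVELD3 rose, and MARVELD2 did not pass the test. OCLN, which encodes occludin, had 149, 53.8 and 62.6 CPM in resistant cells, against 19.2, 27.8 and 25.6 CPM in parental cells. The lowest resistant library was above the highest parental one, and the log2 fold change was 1.87 ± 0.37 (edgeR adjusted p = 0.00312). Without the resistant library numbered 1, which stood highest, it was 1.27 and was still called. MARVELD3, an occludin relative, had 2.45, 2.01 and 0.999 CPM in resistant cells and 0.657, 0.192 and 0.518 CPM in parental cells. Its change of 1.97 ± 0.69 passed narrowly (edgeR adjusted p = 0.0488) and was kept in 4 of 12 fits that each left out 1 library; it also shares exon positions with the antisense gene PHLPP2. MARVELD2, which lies 48.0 kb from OCLN on chromosome 5, averaged 26.5 ± 11.9 CPM in resistant and 17.6 ± 3.15 CPM in parental cells (SD, n = 3 each).

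None of the 3 junctional adhesion molecules passed the edgeR test, and 0 had an unadjusted p under 0.05; neither DESeq2 nor limma-voom called any. F11R, which encodes JAM-A, had 103, 30.9 and 14.5 CPM in resistant cells and 29.2, 17.5 and 45.6 CPM in parental cells. Its resistant libraries spanned the whole parental range. JAM2 and JAM3 averaged no more than 1.89 CPM in resistant or parental cells.

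Among the scaffolds, CGN rose. Cingulin, its product, binds ZO proteins and myosin. It had 50.6, 54.6 and 54.8 CPM in resistant cells, against 7.23, 6.98 and 16.6 CPM in parental cells. The resistant libraries were close together and all above the parental ones, with a log2 fold change of 2.37 ± 0.41 (edgeR adjusted p = 0.00124). TJP1, which encodes ZO-1, the main scaffold, had 92.6, 103 and 111 CPM in resistant cells and 143, 182 and 98.1 CPM in parental cells. These overlapped, and the change of -0.47 ± 0.35 did not pass (edgeR adjusted p = 0.351).

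In the Crumbs complex 2 of 3 tested members fell, against 12.8% of all genes. PATJ, a scaffold with many PDZ domains, had 30.8, 27.5 and 22.7 CPM in resistant cells, against 77.5, 90.6 and 57.6 CPM in parental cells. No libraries overlapped, and the log2 fold change was -1.48 ± 0.30 (edgeR adjusted p = 0.00307). CRB3, the short epithelial Crumbs protein, had 6.65, 3.29 and 1.73 CPM in resistant cells and 9.68, 9.99 and 7.40 CPM in parental cells. Its groups lay apart by less than 1 CPM, and the change of -1.21 ± 0.41 (edgeR adjusted p = 0.0443) was kept in 5 of 12 fits that left out 1 library. It was -1.84 without the resistant library numbered 1. CRB3 also shares exon positions with the antisense gene DENND1C. DENND1C had 8.35, 4.63 and 2.94 CPM in resistant cells and 10.2, 6.85 and 9.89 CPM in parental cells. Its log2 fold change was -0.76 ± 0.45 (edgeR adjusted p = 0.226), and 0.01 ± 0.45 in resistant knockout against parental knockout cells. Whether reads of the 2 genes were shared was not tested. The Crumbs partner PALS1 matched no row under that symbol. The table lists it as MPP5, outside the 43, at 60.1 ± 5.49 CPM in resistant and 55.2 ± 18.4 CPM in parental cells.

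The PAR complex gave no call: 0 of 4 members passed the edgeR test and 1, PARD6G, had an unadjusted p under 0.05. DESeq2 called PARD6G, with an adjusted p of 0.0403, and limma-voom called none. PARD3, the polarity scaffold, had 68.9, 78.8 and 69.9 CPM in resistant cells and 87.4, 145 and 80.5 CPM in parental cells. Every resistant library was below every parental one, yet the change of -0.53 ± 0.34 did not pass (edgeR adjusted p = 0.263).

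The same question was asked among the knockout libraries, which share no samples with the comparison above. It is not an independent repeat, since both come from 1 fit with a shared estimate of the spread. Same-numbered parental and parental knockout libraries also deviated together, with correlations of 0.658, 0.774 and 0.779. Past the test were again 9 of 30 members, against 23.9% of all genes, with 5 higher (13.6% of all genes) and 4 lower (10.2% of all genes). Of these, 7 were called in the same direction in both comparisons: CLDN16, OCLN, CGN and MARVELD3 higher, and CLDN3, PATJ and CRB3 lower. CLDN1 and CLDN23 were called among knockouts only, and CLDN6 and CLDN7 only without the knockout; the test of the difference called none of the 30. The libraries of 13 members did not overlap, against 37.2% of all genes.

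**Figure D3:**
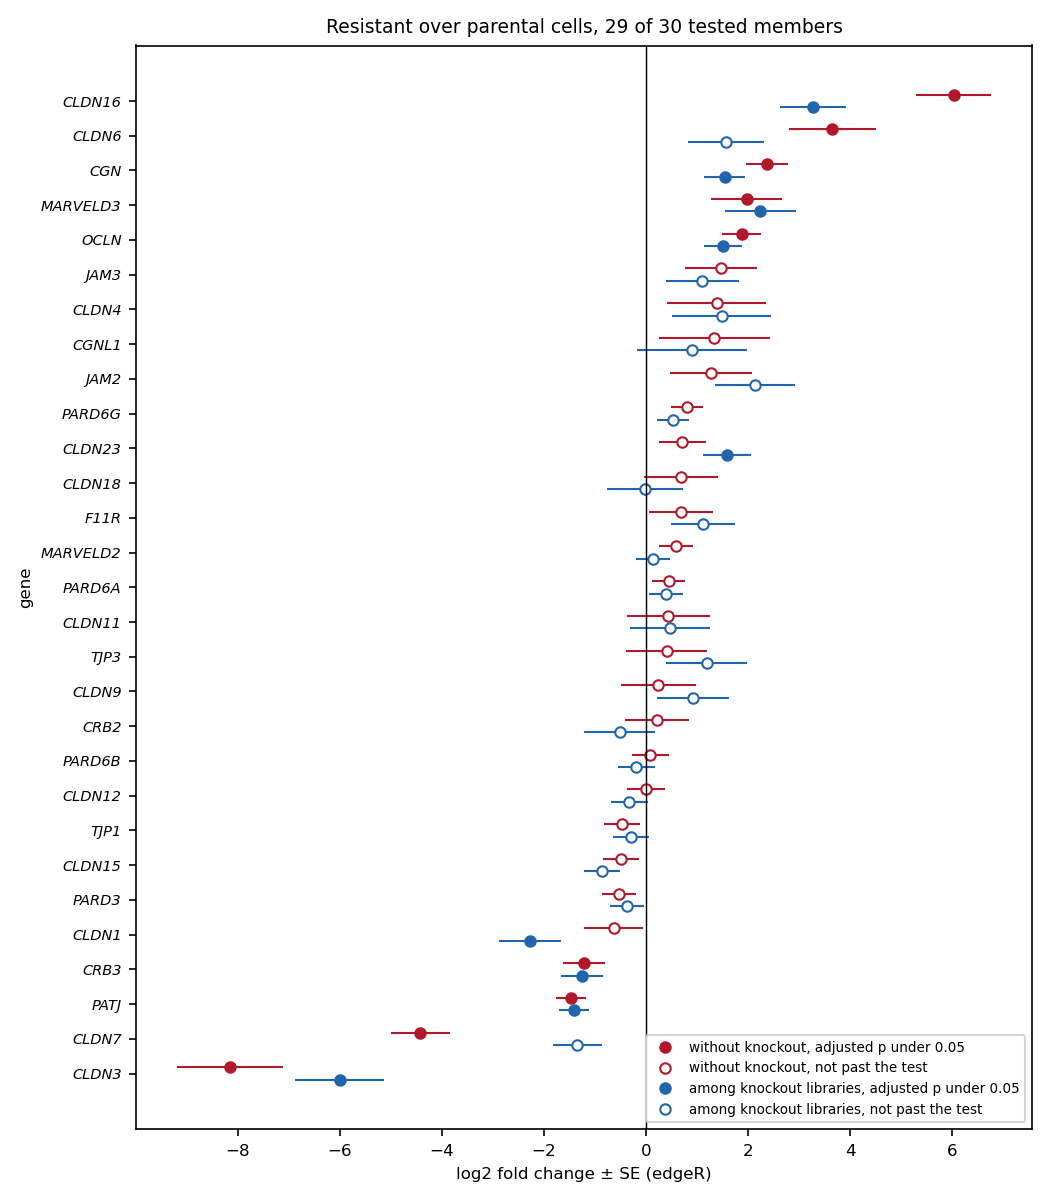
Log2 fold change of resistant over parental cells for 29 of the 30 tested members, with bars of 1 SE, without the knockout (red) and among knockout libraries (blue); filled points have an edgeR adjusted p under 0.05. CLDN16 lies at 6.02 and 3.27 and CLDN3 at -8.16 and -6.00 (fitted values, with 1 resistant and 5 resistant knockout reads), while CLDN7 lies at -4.43 and -1.35.

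CLDN16 had 26.0, 27.1 and 28.9 CPM in resistant knockout libraries, against 0.902, 5.81 and 1.90 CPM in parental knockout libraries. The resistant knockout libraries were close together, and the log2 fold change was 3.27 ± 0.65 (edgeR adjusted p = 0.00341). Without the parental knockout library numbered 2, the highest of its group, it was 4.29, still called. CLDN3 had 0.247, 0 and 0 CPM in resistant knockout and 3.76, 6.26 and 8.50 CPM in parental knockout cells, with an edgeR adjusted p of 0.000486; its 5 resistant knockout reads all came from the library numbered 1. OCLN had 35.3, 35.4 and 36.5 CPM in resistant knockout and 9.27, 17.1 and 11.5 CPM in parental knockout cells, a log2 fold change of 1.5 ± 0.37 (edgeR adjusted p = 0.012). No libraries of the 3 genes overlapped.

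CGN had 39.6, 49.5 and 39.7 CPM in resistant knockout and 10.9, 9.36 and 24.1 CPM in parental knockout cells, a log2 fold change of 1.54 ± 0.40 (edgeR adjusted p = 0.0146). PATJ had 28.8, 34.1 and 19.1 CPM in resistant knockout and 62.4, 97.5 and 59.5 CPM in parental knockout cells, with a change of -1.42 ± 0.29 (edgeR adjusted p = 0.00455). CRB3 had 4.55, 4.98 and 4.82 CPM in resistant knockout and 11.0, 13.0 and 10.5 CPM in parental knockout cells, with a change of -1.26 ± 0.41 (edgeR adjusted p = 0.042). All 3 lay apart by library, as they did without the knockout. MARVELD3 had 2.67, 2.27 and 1.11 CPM in resistant knockout and 0.551, 0.0645 and 0.632 CPM in parental knockout cells, a change of 2.24 ± 0.69 (edgeR adjusted p = 0.0326). When 1 library was left out in turn, the calls of CGN, CRB3 and MARVELD3 were kept in 9, 4 and 8 of 12 fits.

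CLDN1 had 146, 151 and 104 CPM in resistant knockout libraries and 381, 1300 and 247 CPM in parental knockout libraries. All 3 resistant knockout libraries were lower, and the log2 fold change was -2.27 ± 0.60 (edgeR adjusted p = 0.0167). The parental knockout library numbered 2 stood far above the others, and without it or without the resistant knockout library numbered 3 the call was lost. Without that parental knockout library the change was -1.23. CLDN23, a claudin on chromosome 8, had 7.33, 9.19 and 5.81 CPM in resistant knockout and 1.30, 3.29 and 2.87 CPM in parental knockout cells, a change of 1.58 ± 0.47 (edgeR adjusted p = 0.027), kept in 9 of 12 such fits. Without the knockout it had 6.07, 3.84 and 3.42 CPM in resistant and 1.49, 2.75 and 3.88 CPM in parental cells, which overlapped.

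CLDN7 had 3.66, 4.26 and 1.42 CPM in resistant knockout and 6.01, 8.52 and 9.37 CPM in parental knockout libraries. These did not overlap, but the log2 fold change of -1.35 ± 0.48 missed the threshold (edgeR adjusted p = 0.0582). CLDN6 had 0.594, 0.665 and 0.803 CPM in resistant knockout and 0.15, 0.0645 and 0.46 CPM in parental knockout cells, and did not pass (edgeR adjusted p = 0.146). F11R had 73.8, 73.6 and 31.2 CPM in resistant knockout and 22.2, 16.8 and 43.0 CPM in parental knockout cells, which overlapped. TJP1 had 90.8, 82.0 and 119 CPM in resistant knockout and 98.5, 192 and 69.0 CPM in parental knockout cells, also overlapping. For PARD3 the values were 74.0, 54.9 and 95.9 CPM in resistant knockout and 67.8, 146 and 78.0 CPM in parental knockout cells.

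The next question was what changed with the double knockout within each background. These 2 comparisons use the same libraries as those above, so the values are given from the other side. In resistant cells 1 of 30 members passed, against 0.212% of all genes, where each of the 38 genes called was higher in the knockout. The libraries of 6 members did not overlap, against 15.2% of all genes. The member past the test was CLDN7, with 3.66, 4.26 and 1.42 CPM in resistant knockout cells and 0.117, 0.548 and 0.263 CPM in resistant cells. The lowest knockout library was above the highest control, the log2 fold change was 3.32 ± 0.56 (SE, n = 3 each), and the edgeR adjusted p was 0.0332. The resistant knockout mean was 39.1% of that in parental knockout cells. ELP5, antisense to it, had a change of 0.05 ± 0.26 (edgeR adjusted p = 0.984). The call was lost in 6 of 12 fits that left out 1 library: without the parental library numbered 1, without any 1 of the resistant libraries, or without the resistant knockout library numbered 1 or 2. The log2 fold change was between 2.93 and 3.97 in these 12 fits, highest without the resistant library numbered 2. By limma-voom the adjusted p was 0.0545, and in a fit of the compared libraries alone the edgeR adjusted p was 0.121.

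**Figure D4:**
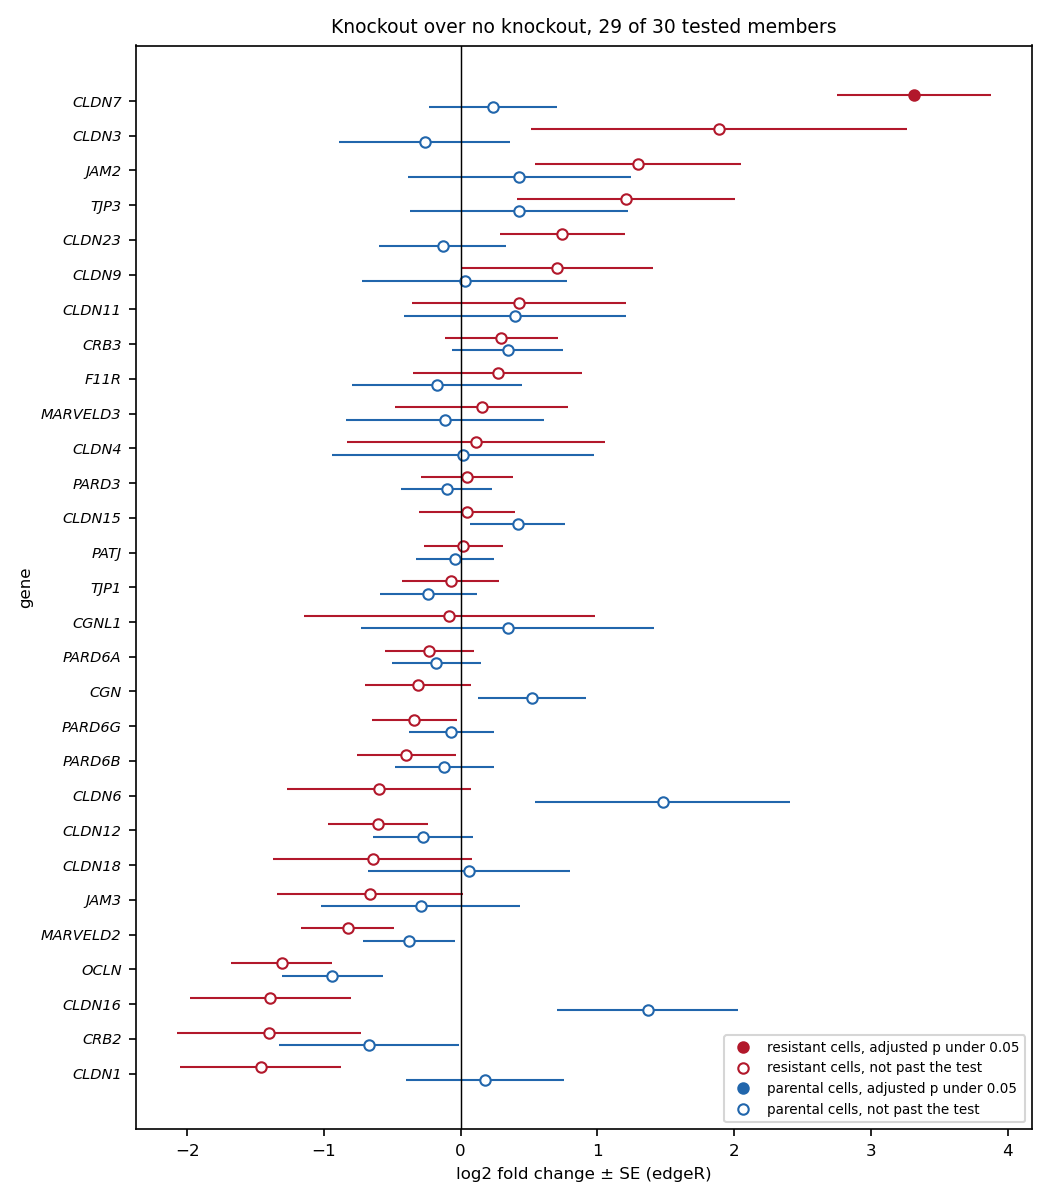
Log2 fold change of knockout over no knockout for 29 of the 30 tested members, with bars of 1 SE, in resistant (red) and parental cells (blue); the filled point has an edgeR adjusted p under 0.05. CLDN7 lies at 3.32 in resistant and 0.24 in parental cells, and OCLN lies at -1.31 and -0.94.

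CLDN3 did not return with CLDN7. It had 5 reads, all in 1 library, in resistant knockout cells and 1 read in resistant cells, a ratio of 4.83 with a 95% exact counting interval of 0.54 to 228. No member was called lower in the resistant knockout, and 4 had an unadjusted p under 0.05 in that direction in edgeR: OCLN, CLDN1, MARVELD2 and CLDN16. With CLDN7 that makes 5 of 30 members under 0.05 before adjustment, against 1426 of 17947 genes. DESeq2 and limma-voom also called none lower. With CGN, these 4 were also the 5 members whose knockout libraries all lay below the controls, against 7.17% of all genes. OCLN had 35.3, 35.4 and 36.5 CPM in resistant knockout and 149, 53.8 and 62.6 CPM in resistant cells, a log2 fold change of -1.31 ± 0.37 (edgeR adjusted p = 0.26). CLDN1 had 146, 151 and 104 CPM in resistant knockout and 595, 248 and 260 CPM in resistant cells, a change of -1.46 ± 0.59 (edgeR adjusted p = 0.543). In each of these 4 genes the resistant library numbered 1 was the highest of its group. That library was the highest of its group for 17 of 30 members, or 56.7%, and for 43.0% of all genes; its part in these differences was not tested.

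In parental cells 0 of 30 members passed, against 0% of all genes, for 0 genes were called. Of the 30, 1 had an unadjusted p under 0.05 in edgeR, against 539 of 17947 genes, and DESeq2 and limma-voom called none. That gene was OCLN, with 9.27, 17.1 and 11.5 CPM in parental knockout and 19.2, 27.8 and 25.6 CPM in parental cells. All knockout libraries lay below the controls, and the log2 fold change was -0.94 ± 0.37 (unadjusted p = 0.0247, edgeR adjusted p = 1). Its libraries and those of CRB3 were the 2 of 30 that did not overlap, against 6.59% of all genes. CLDN7 had 6.01, 8.52 and 9.37 CPM in parental knockout and 7.77, 6.53 and 5.95 CPM in parental cells, which overlapped, with a change of 0.24 ± 0.47. Libraries with the same number deviated together here, while the main test took them as unpaired. A block for the number within backgrounds called 154 of all genes and still 0 of the 30.

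The knockout effect in resistant cells minus that in parental cells was tested as an interaction. None of the 30 members passed, against 0.0279% of all genes, and 2 had an unadjusted p under 0.05 in edgeR, against 678 of 17947 genes. CLDN7 had a difference of 3.08 ± 0.73 on the log2 scale (edgeR adjusted p = 0.349), and CLDN16 had -2.76 ± 0.88 (edgeR adjusted p = 0.862). DESeq2 called CLDN7 (adjusted p = 0.00966), and limma-voom called none. Whether CLDN7 passed this test thus depended on the tool.

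Beyond the 14 shown by library, 16 tested members passed the edgeR test in none of the 5 contrasts. Of the 6 claudins among them, CLDN15, CLDN12 and CLDN4 had group means of 9.20 to 45 CPM, while CLDN9, CLDN11 and CLDN18 did not exceed 1.45 CPM. CLDN15 averaged 24.7 ± 7.42 CPM in resistant knockout, 23.9 ± 2.93 in resistant, 45 ± 19.3 in parental knockout and 33.7 ± 10.6 in parental cells (SD, n = 3). CLDN12, an unusual claudin without the usual PDZ-binding end, averaged 18.5 ± 5.61, 28.2 ± 12.6, 23.3 ± 4.75 and 28.2 ± 8.88 CPM in the same order of groups; part of its exons lie over those of GTPBP10 and CDK14 on the same strand, so its reads are uncertain. These levels were within about 2-fold of each other across the groups. TJP3, which encodes ZO-3, had 19.4, 8.81 and 1.11 CPM in resistant knockout and 6.95, 4.81 and 0.946 CPM in resistant cells, with the library numbered 3 lowest in each. The PAR6 genes, adaptors that link PAR3 to atypical protein kinase C, had group means of 6.43 to 27.1 CPM, with PARD6G the highest of them in each group. CRB2, JAM2 and JAM3 had group means of 0.37 to 2.98 CPM.

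The tested members varied unevenly within groups. The ratio of the highest to the lowest library had a median of 1.69 in resistant knockout, 2.45 in resistant, 2.50 in parental knockout and 1.94 in parental cells. It could be formed for 30 members in parental knockout cells and for 29 in each other group, since CLDN3 or CLDN6 had a library at 0. The widest ratio was that of TJP3 in resistant knockout cells (17.5), CLDN4 in resistant cells (20.5) and CGNL1 in both parental groups. CGNL1, singled out after its values were seen, encodes paracingulin, a relative of cingulin, and its ratio was 1.68 in resistant knockout and 3.38 in resistant cells. It had 51.1, 45.1 and 30.4 CPM in resistant knockout, 78.8, 32.2 and 23.3 CPM in resistant, 2.35, 8.07 and 57.2 CPM in parental knockout and 1.31, 7.94 and 43.8 CPM in parental cells. The libraries numbered 3 were highest in both parental groups, by 24.3 and 33.4 times over the lowest. Over all 12 libraries the log2 fold change of CGNL1 in resistant cells was 1.34 ± 1.09 and did not pass (edgeR adjusted p = 0.384). With both parental libraries numbered 3 left out, CGNL1 was called higher in resistant cells. Those libraries held its highest parental values, so that fit cannot serve as a test of this gene.

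Further junction genes, none of them members, came from 4 lists. Of 24 tested adaptors and polarity partners, 4 were higher and 5 lower in resistant cells, against 15.2% and 12.8% of all genes. MARVELD1, a relative of occludin, had no reads in the 3 resistant libraries and 21.0 ± 8.57 CPM in parental cells, at least 378-fold lower against a floor of 3 counts over the group (edgeR adjusted p = 9.33e-06). Resistant knockout cells had 0.59 ± 0.30 CPM, which is at least 9.98-fold higher than in the resistant cells (edgeR adjusted p = 0.0463). AMOT, an angiomotin that binds PATJ, rose to 25.8 ± 9.21 CPM in resistant cells, against 0.909 ± 0.275 CPM in parental cells (edgeR adjusted p = 4.45e-05). TIAM1, a Rac exchange factor that binds PARD3, was at 31.3 ± 4.70 CPM in resistant and 2.83 ± 2.59 CPM in parental cells (edgeR adjusted p = 0.00237). LLGL2, a basolateral polarity protein, fell to 39.6 ± 1.14 CPM in resistant cells, against 137 ± 54.4 CPM in parental cells (edgeR adjusted p = 0.00512).

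Of 5 tested immunoglobulin-type junction proteins and angulins, 3 were higher and 1 lower in resistant cells, against 15.2% and 12.8% of all genes. CLMP, an adhesion protein related to CXADR, had 0.435 ± 0.20 CPM in resistant and 125 ± 41.0 CPM in parental cells (edgeR adjusted p = 4.1e-06). In the resistant knockout it was at 5.06 ± 1.22 CPM, a log2 rise of 3.51 ± 0.56 over resistant cells (edgeR adjusted p = 0.028). ESAM, ILDR2 and CXADR were higher in resistant cells, with edgeR adjusted p-values of 0.00647, 0.0227 and 0.0373; ILDR2 had 28 reads in resistant and 3 in parental cells. CLDN7, CLMP and MARVELD1 were each lower in resistant cells and higher in the resistant knockout. Each stayed below the parental knockout mean, CLMP at 5.22% and MARVELD1 at 2.67% of it. CLMP and MARVELD1 were named because they passed at least 1 of these comparisons. Both comparisons use the same resistant libraries, so low values there enter both. How many of all genes share this pattern was not counted.

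Of 13 tested adherens junction and EPCAM-family genes, 4 rose and 1 fell, against 15.2% and 12.8% of all genes. CDH2, N-cadherin, was at 216 ± 63.7 CPM in resistant and 37.2 ± 8.53 CPM in parental cells (edgeR adjusted p = 0.00025). EPCAM, which binds CLDN7 and CLDN1, fell to 4.13 ± 2.59 CPM in resistant cells, against 35.0 ± 7.2 CPM in parental cells (edgeR adjusted p = 0.00122). CTNND1, p120-catenin, rose as well (log2 fold change 1.07 ± 0.24, edgeR adjusted p = 0.00589).

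Of 15 tested transcription factors known to act on epithelial junction genes, 2 were higher and 6 lower in resistant cells, against 15.2% and 12.8% of all genes. EHF, an epithelial ETS factor, had 2 reads in resistant and 414 in parental cells (ratio 211, parental over resistant, counting interval 57.9 to 1740; edgeR adjusted p = 7.36e-05). OVOL2, a repressor of mesenchymal genes, fell to 1.07 ± 0.061 CPM in resistant cells, against 5.38 ± 1.63 CPM in parental cells (edgeR adjusted p = 0.00117). KLF4 fell to 6.18 ± 0.405 CPM in resistant cells, against 94.8 ± 60.6 CPM in parental cells (edgeR adjusted p = 0.00126). TFAP2C rose, with 189 reads in resistant and 3 in parental cells (edgeR adjusted p = 0.00031). SNAI1, an E-box repressor outside the naming rule and chosen after its values were seen, was the other that rose. It had 4.15 ± 1.97 CPM in resistant and 0.584 ± 0.344 CPM in parental cells (edgeR adjusted p = 0.0192). SNAI2, ZEB1 and ZEB2 did not pass. Their log2 fold changes were -0.5 ± 0.61, -0.16 ± 0.23 and -0.63 ± 0.77 (edgeR adjusted p = 0.573, 0.626 and 0.571). TWIST1 was lower, at -1.23 ± 0.26 (edgeR adjusted p = 0.00434). SNAI1 averaged 12.1 ± 2.33 CPM in resistant knockout cells. Its log2 fold change of 1.54 ± 0.71 over resistant cells did not pass (edgeR adjusted p = 0.63). A link between these factors and the junction genes was not tested.

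Markers of the labelled cell type were present: 9 to 10 of 11 ovarian carcinoma and epithelial markers had a group mean of at least 1 CPM in each group. Their summed level was 2470 to 2910 CPM in resistant knockout, 2750 to 3520 in resistant, 1530 to 6230 in parental knockout and 2460 to 11400 in parental libraries. Of the 11, 3 were called higher and 4 lower in resistant cells: KRT8 averaged 1380 ± 360 CPM in resistant and 224 ± 71.3 CPM in parental cells, and KRT19 averaged 1.58 ± 1.38 CPM in resistant and 152 ± 98.8 CPM in parental cells (edgeR adjusted p = 0.000546 and 0.000118). Fibroblast markers moved with the groups: at least 1 CPM was reached by 6 of 8 in resistant knockout, 5 in resistant, 3 in parental knockout and 1 in parental cells. Their sum was 2530 to 4470, 350 to 960, 2.30 to 27.9 and 1.61 to 8.54 CPM per library in the same order, and their part in the junction gene differences was not tested. COL1A1 made up most of these sums in the resistant background, with a mean of 3650 CPM in resistant knockout and 671 CPM in resistant cells. DCN went the other way, at 0.0748 ± 0.0263 CPM in resistant and 2.46 ± 1.29 CPM in parental cells (edgeR adjusted p = 0.0104), and THY1 did not exceed 0.345 CPM in any library. No leukocyte marker reached 1 CPM, and endothelial markers summed to at most 18.0 CPM in any library. KRT1 and IVL of the keratinocyte list had no reads, and that list summed to 28.4 to 143 CPM in each of the 12 libraries. KRT5 had no reads in resistant cells and 37.6 ± 44.5 CPM in parental cells (edgeR adjusted p = 0.00898). Schwann and Sertoli cell markers summed to 86.5 to 217 CPM, with 2 of 5 at or above 1 CPM in each group.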

How the data were processed

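Gene counts were deposited by the authors as raw read counts per gene for 12 libraries of SKOV-3 cells. Per the labels' protocols, poly(A) RNA was made into libraries with a strand-keeping kit. The tools were STAR 2.7.10a, Trim Galore 0.6.10 and, for the counts, featureCounts 2.0.1 on build GRCh38, per the submitters' processing notes. The annotation, the strand setting and the treatment of multi-mapping reads were not given in the sources used here. The headers of 2 resistant columns hold a spelling error and were matched through their remaining letters.

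Groups came from the sample titles. In edgeR 4.0.16 (R 4.3.3), low genes were removed by filterByExpr, and counts were scaled with TMM and tested with the robust quasi-likelihood method in a single fit over 12 libraries, with 5 contrasts and Benjamini-Hochberg adjustment at 0.05. Levels are mean ± SD over 3 libraries. Floors of 3 counts and 95% exact intervals cover counting error only. The fit was tested on simulated data. Coordinates and exon lengths came from GENCODE 29. The members were the 43 symbols matched; values per library were given for members past the test in a contrast with at least 1 CPM in a group, or with at least 50 CPM, and up to 4 genes per further list. Members and lists were chosen with earlier results of these data known. Same-numbered libraries of the parental and parental knockout groups correlated in their deviations from group means (0.658, 0.774 and 0.779). In the resistant background the pairs numbered 1, 2 and 3 had 0.569, -0.186 and 0.639, so the numbers were not taken as consistent pairs there. The main fit had no term for the number in either background. The block within backgrounds fitted the number in both. Alternatives used DESeq2 1.42.0, limma 3.58.1 (voom), other scaling, filters and blocks, and left-out libraries. Some genes that these rules include are not reported here.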

Additional observations from a re-analysis of the deposited data

How the results depend on the processing

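The number of members called higher or lower was recomputed under each alternative. For resistant against parental it was 7 to 12 over all alternatives, while the share of all genes called ran from 13.9% to 33.6%. The lowest share came with a filter of 1 count only, which tested 41 members and 41281 genes. For the knockout in parental cells the number of members called was 0 under each alternative. For the knockout in resistant cells it was 4 of 41 with a filter of 1 count only, against 1.09% of all genes. CLDN7 was higher there, and CLDN16, CLDN1 and OCLN were lower. The replicate block within backgrounds called 3 of 30 (CLDN7, CLDN1 and OCLN), against 5.23% of all genes. Limma-voom and the fit of only the libraries compared called 0, against 0.245% and 0.155% of all genes. When 1 library was left out the number was 0 to 1, against 0.0215% to 0.269%. Among knockout libraries, resistant against parental gave 9 of 30 in the main fit, against 23.9% of all genes. A filter of 1 count only gave 13 of 41, against 12.6% of all genes, and DESeq2 gave 12 of 30, against 29.9%. With both parental libraries numbered 3 left out it was 12 of 31, against 26.8%. When 1 library was left out it was 5 to 10, against 14.6% to 25.3%. It was 5 without the parental knockout library numbered 1 or 2 or the resistant knockout library numbered 2. The difference of the knockout effects gave 0 in the main fit. With a filter of 1 count only it gave 2 of 41 (CLDN7 and CLDN16), against 0.39% of all genes. DESeq2 gave 1 of 30, against 0.373%. The replicate block within backgrounds also gave 1 of 30, against 1.53% (CLDN7, edgeR adjusted p = 0.0115). No log2 fold change turned its sign where it was called. The additive replicate block gave 11 of 30 members in resistant against parental and 11 among knockouts, against 30.9% and 26.7% of all genes. It gave 1 and 0 for the knockout in resistant and parental cells, and 0 for their difference. With the block within backgrounds, 154 of all genes were called for the knockout in parental cells, against 0 without it. It called 939 in resistant cells, against 38, and 274 for the difference, against 5. In the resistant background, libraries numbered 1, 2 and 3 correlated with their knockout counterparts at 0.569, -0.186 and 0.639, so pairing there was uneven. For each count that moved, the cause was not tested. Scaling by library size alone moved the median of all genes among knockouts to 0.15 on the log2 scale and the higher calls to 2928 of 4296, against 2445 of 4281. CLDN7 among knockouts was called by DESeq2 (adjusted p = 0.0117), by limma-voom (0.029), with the additive block (0.0436) and by a newer form of the quasi-likelihood method. That newer form, added after the data were seen, gave the same 9 calls for resistant against parental, against 29.6% of all genes. Among knockouts it gave 11, with JAM2 and CLDN7 added, against 26.1% of all genes. Members with few reads, such as CLDN3 and CLDN6, are limited by depth.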
